A study of Callithrix jacchus with 3 samples.

Results

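The FOX and SOX families of transcription factor genes were described in marmoset stem cells, taken as the genes whose Ensembl marmoset ID maps to a symbol made of FOX plus a letter and a number, or SOX plus a number. SOX2, FOXA2 and FOXM1 were set aside, as were the RBFOX genes, which encode RNA-binding proteins. The rule gave 25 genes of the 30811 gene IDs in each count file, 21 of them FOX and 4 SOX genes. A further 31 family symbols of the name table have an ID that is not among those counted, SOX17, SOX9, FOXA1 and FOXO1 among them, and were not analysed here.

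RNA was sequenced from 3 libraries, all of 1 group, made from cells of the common marmoset (Callithrix jacchus). The submitters call the cells EPSC-like, short for like extended pluripotent stem cells, and, per the study's title, they came from attempts to derive such cells from embryonic stem cells of this monkey. No parental or control cells were analysed here, and no label gives a treatment or a medium. All 3 titles begin with No40 and differ only in the replicate number, so the libraries may share 1 line. Nothing says that they came from separate cultures. Each SD and each p-value for a level thus rests on how far these 3 libraries differ, and that may be technical variation alone. The p-values below for a difference between 2 libraries cover counting error only. Total counts were 52327369, 55224475 and 40593244 in replicates 1, 2 and 3, and a count of 0 allows a level of up to 0.0573, 0.0543 and 0.0739 CPM (3 counts, as counts per 1000000; counting error only). Replicates 1 and 2 lay close together and replicate 3 apart from them, as described for the members below. The labelled cell type was checked by its markers, and 9 of 9 matched genes of the core pluripotency list were above 1 CPM. POU5F1, the gene of OCT4, stood at 1044 ± 122 CPM and SALL4 at 109 ± 43.8 CPM (SD, n = 3). Of all tested genes with a symbol 78.3% were above 1 CPM, and no list here or below was tested against that share.

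FOX proteins bind DNA through a forkhead domain and SOX proteins through an HMG box related to that of SRY. Both families are split into lettered subgroups, some of them used in nearly every cell and others limited to a few tissues. In pluripotent cells SOX2 binds DNA together with OCT4, and FOXH1 carries the SMAD proteins of nodal and activin signalling to DNA.

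Of the 25 genes, 14 were above 1 CPM, 8 were below it, FOXN1 and SOX6 were not distinguished from it, and FOXI2 had no counts in the 3 libraries (edgeR quasi-likelihood F statistic against 1 CPM, two-sided, Benjamini-Hochberg adjusted over all genes). Those above were FOXH1, FOXJ2, FOXJ3, FOXK1, FOXK2, FOXN2, FOXN4, FOXO3, FOXO4, FOXP1, FOXP3, FOXP4, SOX13 and SOX30. The 24 members with a count were thus above the level in 58.3% of cases, against 56.0% of all 23432 genes tested and 78.3% of the 12174 of those with a symbol. The share is near that of all genes and below that of genes with a symbol (not tested), and it is not a result about the families. The median fitted level was 1.5 on the log2 CPM scale over the 24 members, 1.70 over all genes tested and 4.12 over those with a symbol. CPM grows with transcript length, and transcript lengths for the counted annotation were not used here, so levels of different genes are given without an order.

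**Figure D1:**
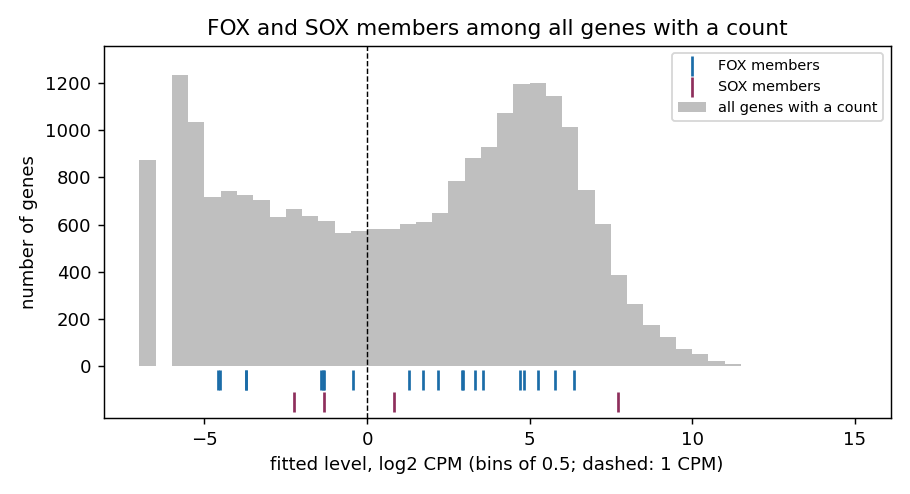
Distribution of the fitted level (log2 CPM, x axis) over the 23432 genes with a count, as number of genes per bin (y axis), with the 20 FOX and 4 SOX members marked as ticks below. Members lie on both sides of 1 CPM (dashed line), with 14 above it by the test.

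SOX2, shown for context, had 232, 265 and 239 CPM in replicates 1, 2 and 3. Beside it, SOX13 (ENSCJAG00000016794) was well above 1 CPM, with 212, 215 and 204 CPM in replicates 1, 2 and 3 (mean 210 ± 5.89 CPM, SD, n = 3, adjusted p = 7.51e-14 against 1 CPM, edgeR quasi-likelihood). The values lay close together, with replicate 3 lowest and an SD of 2.80% of the mean. SOX13 belongs to the SoxD group, whose proteins lack an activation domain of their own, and in mouse it acts on the Wnt-related factor TCF1 and in gamma-delta T cells. SOX6 (ENSCJAG00000009643), another SoxD gene, which works with SOX5 and SOX9 in cartilage, had only 38, 22 and 2 counts, or 0.726, 0.4 and 0.049 CPM. It was not distinguished from 1 CPM (log2 level −1.32, adjusted p = 0.0659, edgeR quasi-likelihood). SOX13 thus passed the test and SOX6 did not, and levels of these genes were not compared with each other.

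SOX30 (ENSCJAG00000018960), a gene of spermatid development in mouse, had 1.80, 1.87 and 1.67 CPM in replicates 1, 2 and 3 and was above 1 CPM (adjusted p = 0.00209, edgeR quasi-likelihood). The 3 values are close to each other but also near the level, and against 2 CPM the fitted level of 0.83 on the log2 scale was on the other side and not distinguished. SOX18 (ENSCJAG00000022379), a SoxF gene of blood and lymphatic vessels, had 8, 21 and 3 counts and was below 1 CPM at 0.203 ± 0.160 CPM (SD, n = 3, adjusted p = 0.00721, edgeR quasi-likelihood). Of the blood and endothelium list, 5 of 10 matched genes were above 1 CPM, 4 below and 1 not distinguished. PECAM1, an adhesion gene of endothelium that pluripotent cells also express, stood at 101 ± 30.5 CPM, while the endothelial cadherin gene CDH5 stood at 0.0906 ± 0.0278 CPM.

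FOXH1 (ENSCJAG00000021407) had 84.9, 86.1 and 76.2 CPM in replicates 1, 2 and 3, a mean of 82.4 ± 5.37 CPM (SD, n = 3, adjusted p = 1.12e-12 against 1 CPM, edgeR quasi-likelihood). All 3 libraries were far above the level and close to each other. Its protein acts together with SMAD partners, and 11 of 12 matched genes of the list of nodal signalling and FOXH1 partners were above 1 CPM as well, with none below. Of all tested genes with a symbol 78.3% were above that level. The ligand genes NODAL and GDF3 stood at 9.38 ± 0.668 and 194 ± 75.7 CPM. The partner genes SMAD2, SMAD3 and SMAD4 stood at 28.1 ± 8.03, 7.04 ± 0.399 and 64.4 ± 17.3 CPM. The nodal antagonist gene CER1 was not distinguished from 1 CPM, with 1.95, 1.07 and 0.196 CPM in replicates 1, 2 and 3. In the RefSeq annotation of another assembly (calJac240_pri) the FOXH1 span overlaps that of KIFC2, a kinesin gene, which had 15.5, 16.6 and 29.9 CPM here. The strand setting of the counting is not given in the sources used here. How many of the FOXH1 reads came from KIFC2 was not tested.

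FoxO proteins are kept out of the nucleus when insulin and PI3K signalling activates AKT. Of their genes, FOXO3 and FOXO4 were both above 1 CPM, while FOXO1 and FOXO6 were among those not analysed here. FOXO3 (ENSCJAG00000005929) had 11.9, 12.7 and 5.17 CPM in replicates 1, 2 and 3, and FOXO4 (ENSCJAG00000013651) had 8.70, 8.29 and 5.91 CPM (adjusted p = 7.12e-07 and 1.01e-07 against 1 CPM, edgeR quasi-likelihood). Replicate 3 was lowest for each. In human, FOXO3 has a near-identical processed copy, and how the authors treated reads that fit several places is not given in the sources used here, so its level is uncertain. All 16 matched genes of the list of FOXO kinases and binding proteins were above 1 CPM. Among them AKT1 and AKT2 stood at 22.3 ± 2.15 and 35.3 ± 0.317 CPM, and the 14-3-3 gene YWHAE, whose product holds phosphorylated FOXO in the cytoplasm, at 1257 ± 27.8 CPM. All 13 matched genes of the FOXO target list were above it too, with TXNIP, a regulator of glucose uptake, at 328 ± 16.2 CPM and the repressor gene BCL6 at 1.90 ± 0.452 CPM. Both counts stand beside 78.3% of all tested genes with a symbol above 1 CPM, and were not tested against it. RNA levels of the listed genes do not show where FOXO proteins are or whether they act.

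**Figure D2:**
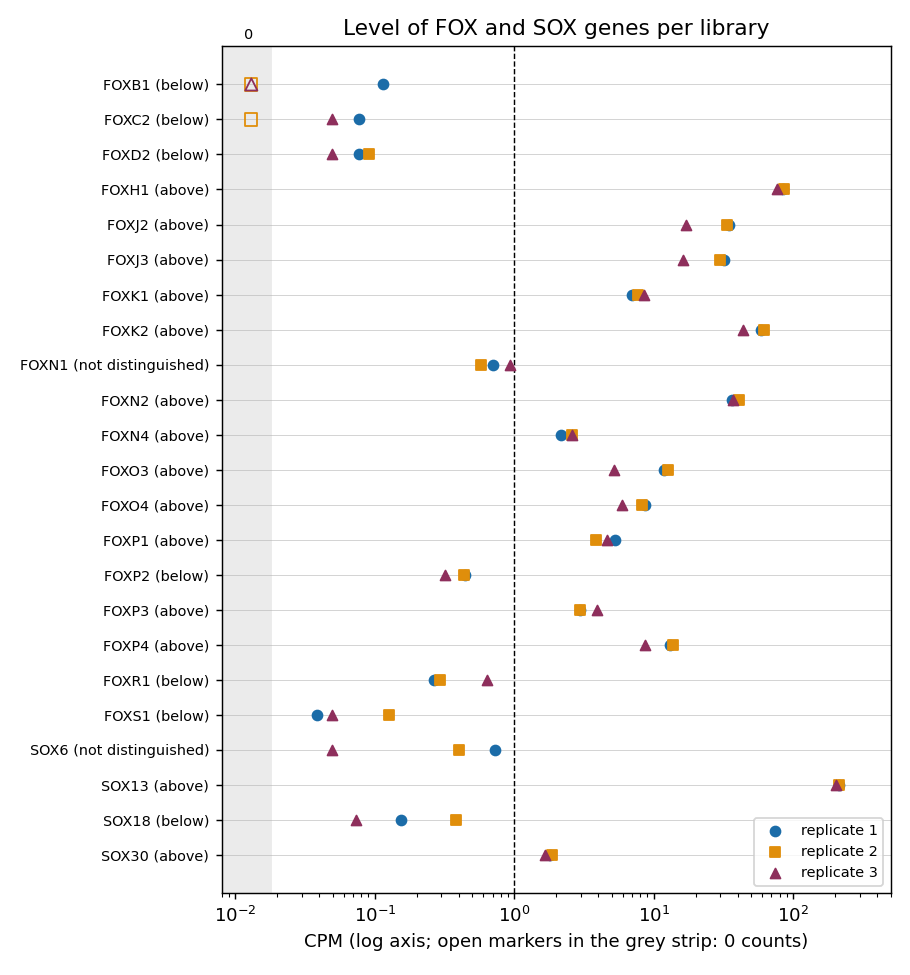
CPM (log axis) of 23 of the 24 members with a count in replicates 1, 2 and 3, with the call against 1 CPM (dashed line) beside each symbol. Open markers in the grey strip stand for 0 counts, and replicate 3 is lowest for FOXJ2, FOXJ3, FOXO3, FOXO4 and SOX6.

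Several FOX genes known to be widely expressed were above the level in each library. FOXK2 (ENSCJAG00000017923) had 59.4, 62.0 and 43.6 CPM in replicates 1, 2 and 3, and FOXK1 (ENSCJAG00000018682) had 6.94, 7.78 and 8.58 CPM. FOXK proteins repress genes of autophagy when nutrients are plentiful. FOXN2 (ENSCJAG00000010894), a little-studied gene, had 36.3, 40.8 and 37.3 CPM. FOXJ2 (ENSCJAG00000018955) had 35.0, 33.5 and 16.9 CPM and FOXJ3 (ENSCJAG00000003088), which in mouse drives Mef2c in muscle, had 31.7, 29.8 and 16.4 CPM. Replicate 3 was low for FOXJ2, FOXJ3 and FOXK2, while FOXK1 was highest in replicate 3 and FOXN2 in replicate 2. Adjusted p-values against 1 CPM ran from 1.33e-11 for FOXN2 to 3.10e-08 for FOXK1 (edgeR quasi-likelihood). In the RefSeq annotation the FOXK2 span overlaps that of the protein-coding gene WDR45B, and the FOXJ3 span that of LOC144576981. Likewise FOXP1 overlaps LOC118147771 and FOXN4 overlaps MYO1H, which had 0.268, 0.0727 and 0.147 CPM in replicates 1, 2 and 3. How many of the reads came from these overlapping genes was not tested.

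In the FoxP subgroup, FOXP4 (ENSCJAG00000004180) had 13.1, 13.7 and 8.66 CPM in replicates 1, 2 and 3, and FOXP1 (ENSCJAG00000013138), of which human embryonic stem cells make a splice form of their own, had 5.26, 3.86 and 4.66 CPM. Counts per gene do not separate splice forms. FOXP2, the gene tied to speech in human, was below 1 CPM at 0.398 ± 0.0689 CPM (SD, n = 3, adjusted p = 0.00496, edgeR quasi-likelihood). FOXP3 (ENSCJAG00000002813), the factor that defines regulatory T cells, was above 1 CPM, with 2.94, 2.98 and 3.95 CPM (adjusted p = 1.30e-05, edgeR quasi-likelihood). PTPRC, the pan-leukocyte gene, had 0.0382, 0.0727 and 0 CPM in the same libraries, near the limit that 0 counts allow. In the RefSeq annotation the FOXP3 span overlaps that of CCDC22, a gene with 31.0, 29.6 and 33.7 CPM here. Without the strand setting, how many of the FOXP3 reads came from CCDC22 was not tested.

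FOXN4 (ENSCJAG00000010010), a factor of retinal and spinal progenitors, was above 1 CPM, at 2.18, 2.60 and 2.58 CPM in replicates 1, 2 and 3 (adjusted p = 8.86e-05, edgeR quasi-likelihood). FOXN1, the factor of thymic epithelium and hair, had 0.707, 0.582 and 0.932 CPM and was not distinguished from 1 CPM (adjusted p = 0.125, edgeR quasi-likelihood). Without replicate 3 FOXN1 was below it, in a fit on 2 libraries (log2 level −0.64, adjusted p = 0.012, edgeR quasi-likelihood). Among those below 1 CPM were FOXB1 of the diencephalon, FOXC2 of mesoderm and lymphatic valves, FOXD2, FOXR1 and FOXS1.

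FOXR1 had 14, 16 and 26 counts in replicates 1, 2 and 3. FOXB1, FOXC2, FOXD2 and FOXS1 each had 7 or fewer counts in every library, and FOXB1 had 6 counts in replicate 1 and 0 in the other 2. The members below 1 CPM, SOX18 and FOXP2 included, had mean levels between 0.0382 and 0.399 CPM, and they made 8 of the 24 tested. Of all genes tested 37.8% were below 1 CPM, and of those with a symbol 16.1%. For FOXI2, with 0 counts in each library, only the limits given above can be stated.

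Marker lists of some tissues in which FOX or SOX genes act differed in how many genes were above 1 CPM. Of all tested genes with a symbol 78.3% were above it. Of the neuroectoderm list, 4 of 9 matched genes were above 1 CPM, 4 below and 1 had no counts. NES, which encodes an intermediate filament protein, stood at 336 ± 28.3 CPM (SD, n = 3). All 6 matched genes of the cartilage list were above it, with MATN3 at 5.69 ± 1.05 CPM and COL2A1 at 1.94 ± 1.12 CPM. Of the ciliated epithelium list, the program that FOXJ1 governs in other tissues, 9 of 10 were above 1 CPM. SPAG6, a gene of the ciliary axoneme, stood at 163 ± 15.1 CPM. MCIDAS, which commits cells to many cilia, was below at 0.118 ± 0.0710 CPM. FOXJ1 was among the genes not analysed here.

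The libraries were next compared gene by gene, which compares libraries and not conditions (exact conditional binomial test, two-sided, Benjamini-Hochberg adjusted over all genes with a count in the pair, with at least a 1.5-fold difference required). Replicate 3 was lower than replicate 1 for FOXJ2, FOXJ3, FOXO3, FOXP4 and SOX6, against 10.6% of all 22703 genes of that pair. It was lower than replicate 2 for these 5 and SOX18, against 10.7% of all genes. It was higher than each for FOXR1 alone, against 6.83% of all genes for replicate 1 and 7.53% for replicate 2. Among the 14 members above 1 CPM, 4 or 28.6% had less in replicate 3 than in replicate 1, against 13.9% of 13127 genes above the level, and the same 4 were lower than in replicate 2, against 14.2%. None of the 14 was higher in replicate 3, against 4.86% and 5.13% of those genes. With so few members these shares are given as counts, and both pairs share replicate 3.

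FOXO3 was lowest in replicate 3, at 5.17 CPM, against 11.9 and 12.7 CPM in replicates 1 and 2, or 2.30-fold lower than replicate 1 (95% interval 1.97 to 2.70) and 2.45-fold lower than replicate 2 (2.09 to 2.87; adjusted p = 1.93e-27 and 5.78e-33, exact binomial test). FOXJ2 was 2.06-fold lower than replicate 1 (1.89 to 2.26) and FOXJ3 1.94-fold (1.77 to 2.12). FOXP4 was 1.51-fold lower than replicate 1 (1.33 to 1.72), so close to the fold required that with DESeq2 size factors, at 1.49-fold, it was not called. These intervals are exact and, like the p-values between libraries, cover counting error only. SOX6, at 2 counts in replicate 3 against 38 and 22, had ratios of 14.8 (3.83 to 127) and 8.16 (2.01 to 71.6) over it in replicates 1 and 2 (adjusted p = 2.41e-07 and 0.00154, exact binomial test).

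FOXR1 had 26 counts in replicate 3, against 14 and 16 in replicates 1 and 2, a ratio of 2.38 (95% interval 1.20 to 4.94) to replicate 1. That call was lost with halved counts (adjusted p = 0.153 and 0.167 in the 2 pairs), as was that of SOX18 (adjusted p = 0.0720), by the same exact binomial test. SOX13, FOXH1, FOXK2 and FOXO4 were lower in replicate 3 than in each of the others by more than counting noise, but by less than 1.5-fold. The ratios of SOX13 in replicate 3 to replicates 1 and 2 were 0.961 and 0.947. Over all genes above 1 CPM the median ratios were near these, at 0.965 and 0.966. The share of all genes that differ without the fold rule was not counted. For SOX13 the difference from replicate 1, of 1.04-fold, was lost with DESeq2 size factors and with halved counts (adjusted p = 0.0982 and 0.119, exact binomial test). FOXP3 was the reverse, at a ratio of 1.34 (1.07 to 1.68) to replicate 1 and 1.32 to replicate 2, and FOXK1 was higher than in replicate 1 by 1.24-fold (adjusted p = 0.0111, exact binomial test). With halved counts these were lost for FOXP3 (adjusted p = 0.164 and 0.167) and FOXK1 (0.0983).

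Between replicates 2 and 1 no member was called, against 0.529% of all genes higher and 0.782% lower in replicate 2, or 0.183% and 0.328% of genes above 1 CPM (exact binomial test with the 1.5-fold rule). With the rule on fold left out, FOXN2 was higher in replicate 2 (adjusted p = 0.00567) and FOXP1 lower (adjusted p = 0.0154), both lost with halved counts (adjusted p = 0.256 and 0.377). At an unadjusted p under 0.05, 5 of 24 members differed, 3 of them by at least 1.5-fold. The share of all genes at this unadjusted rule was not counted, so it is not a result about the members. Over the members above 1 CPM, the median SD of log2 CPM across the 3 libraries was 0.23, against 0.18 over all genes above it.

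**Figure D3:**
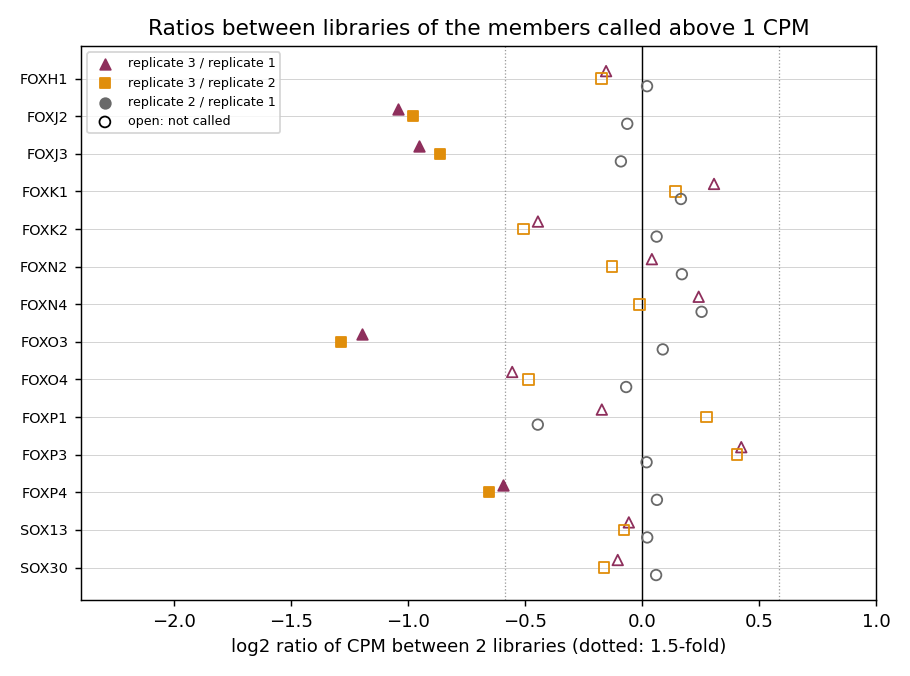
Log2 ratio of CPM between pairs of libraries (x axis) for the 14 members above 1 CPM (rows). Filled markers passed the test with at least 1.5-fold (dotted lines), and these are the ratios of replicate 3 to replicates 1 and 2 for FOXJ2, FOXJ3, FOXO3 and FOXP4.

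Some genes that work with the members also differed between the libraries by the same test and fold rule. Lower in replicate 3 than in replicate 1 were 10.6% of all genes and 13.9% of those above 1 CPM. Relative to replicate 2 these shares were 10.7% and 14.2%. No list here or below was tested against them. Of the nodal list, replicate 3 had less than each of the others for 6 of 12, namely ACVR2B, CER1, FURIN, PCSK6, SMAD2 and SMAD4, and GDF3 was higher. GDF3 had 281 CPM in replicate 3, against 148 and 153 CPM in replicates 1 and 2. SMAD2 had 18.9 CPM in replicate 3, against 32.0 and 33.5 CPM. FOXH1 itself differed by less than 1.5-fold, as did NODAL.

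Of the FOXO kinases and binding proteins, replicate 3 had less than replicate 1 for 3 of 16, PDPK1 and STK4 among them, and XPO1 was also lower than in replicate 2. Of the FOXO targets, BCL2L11, INSR, PIK3IP1 and SESN3 were lower in replicate 3 than in each of the others, which makes 4 of 13, and BCL6 was lower than in replicate 2 only. INSR, the insulin receptor gene, had 34.4 CPM in replicate 3, against 68.4 and 67.3 CPM in replicates 1 and 2. Of the 6 beta-catenin and TCF genes, LEF1 was lower, at 0.981 CPM against 3.90 and 3.16 CPM, and TCF7, the gene of the SOX13 partner TCF1, was not called.

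**Figure D4:**
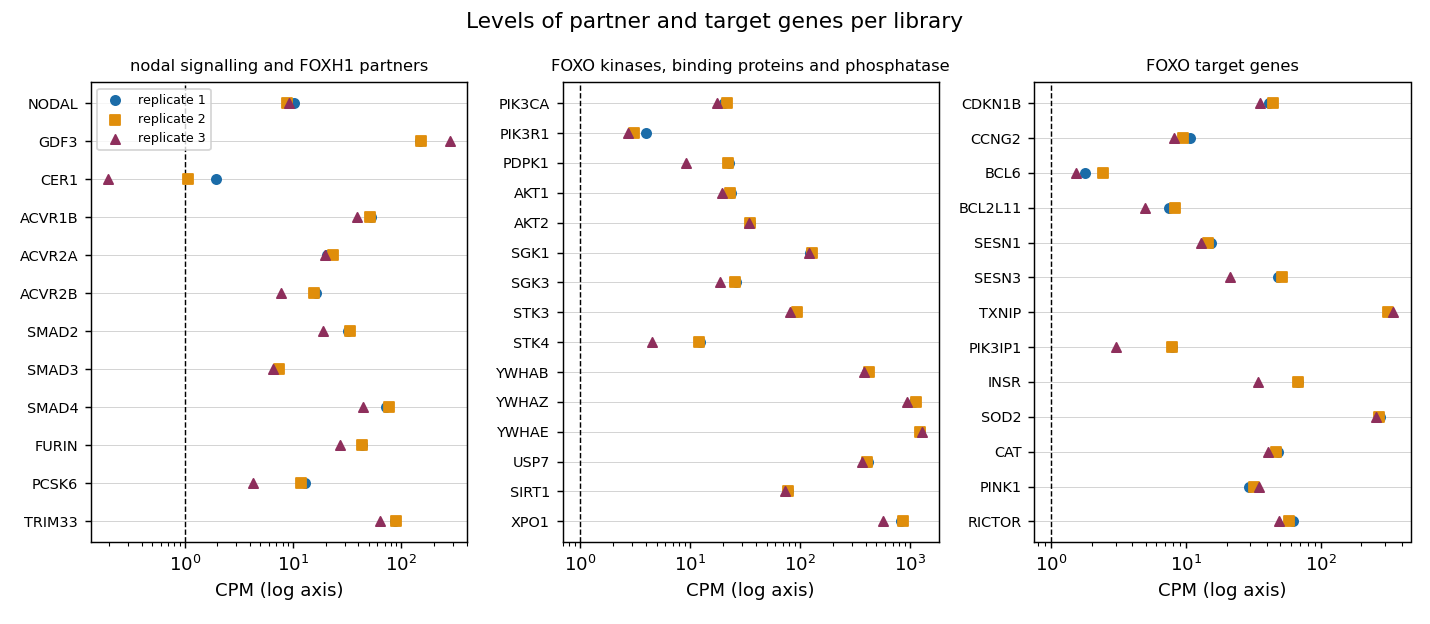
CPM (log axis) of matched genes of the nodal, FOXO kinase and FOXO target lists in replicates 1, 2 and 3, with a dashed line at 1 CPM. All but CER1 were above 1 CPM, and replicate 3 is low for SMAD2, SMAD4, PDPK1, STK4, SESN3 and INSR and high for GDF3.

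Of the core pluripotency list, 3 of 9 genes were lower in replicate 3 than in each of the others, and 0 were higher. SALL4, 1 of these 3, had 58.5 CPM in replicate 3 against 135 and 134 CPM in replicates 1 and 2. The sums of that list were 4333 CPM in replicate 3 against 4699 and 4862 CPM. Of the marker lists for other cell types, several had lower sums in replicate 3 and others had sums near those of the other 2 libraries. By the same rule 10.6% of all genes were lower in replicate 3 than in replicate 1. A sum weighs each gene by its CPM, so a few abundant genes can set most of it. Replicate 3 had less than replicate 1 for 7 of 12 genes of the primitive endoderm list, with summed levels of 573 CPM in replicate 3 against 962 and 943 CPM in replicates 1 and 2. Of these sums COL4A1 alone made 354 CPM in replicate 3 against 544 and 536 CPM. AFP had no counts in any library. For definitive endoderm replicate 3 had less than replicate 1 for 5 of 10, with sums of 24.8 against 45.5 and 44.97 CPM. GATA6, on both lists, had 0.490 CPM in replicate 3 against 7.32 and 8.06 CPM.

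Of the neural crest list 4 of 8 were lower, with sums of 226 against 301 and 294 CPM. ERBB3, which was not called, made 218 CPM of that against 276 and 272 CPM. Of the trophectoderm list 3 of 8 were lower, with sums of 64.9 against 95.1 and 101 CPM, and CYP19A1 had no counts in any library. Of the mesenchyme list 4 of 8 were lower, with sums of 577 against 831 and 779 CPM. COL1A1, which was not called, made 404 CPM of that against 546 and 516 CPM. Of the mesoderm list only PDGFRA was lower, with sums of 44.9 against 49.4 and 47.1 CPM, and TBXT, the gene of brachyury, was higher than in replicate 2, by 1.67-fold. For the blood and endothelium list 2 of 10 were lower, with sums of 102 against 153 and 159 CPM. PECAM1, called lower, made 65.7 CPM of that against 116 and 121 CPM. For neuroectoderm 1 of 9 was lower, relative to replicate 1 only, with sums of 445 against 480 and 469 CPM.

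The ciliated epithelium list had sums of 402 CPM in replicate 3 against 408 and 402 CPM in replicates 1 and 2, with RFX3 lower. The cartilage list had sums of 21.4 against 22.7 and 20.5 CPM, with COL2A1 lower, and COMP and COL11A2 higher than in replicate 2 by 1.92-fold and 1.57-fold. The part of these cell types in the values of FOXJ2, FOXJ3, FOXO3, FOXP4 and SOX6 was not tested, and in bulk RNA fewer cells of a type and less RNA per cell cannot be told apart.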

How the data were processed

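Total RNA of 3 libraries was sequenced. The authors deposited whole-number counts per Ensembl gene ID, made with featureCounts 1.5.2 after STAR 2.5.3a and Trim Galore 0.4.0, per the submitters' processing notes. The sources used here do not give the build, annotation, strand setting or handling of shared reads. The name table paired 12660 of 30811 IDs with a symbol, and 25 of 56 family symbols had a counted ID. CPM values used TMM factors, and the 23432 genes with at least 1 count were fitted in edgeR 4.0.16 (R 4.3.3) with an intercept-only quasi-likelihood model. The F statistic against 1 CPM came from its deviances (prior degrees of freedom 4.67), with calls at an adjusted p under 0.05. On simulated counts for 23432 genes, 98.5% of genes set at 0.5 CPM were called below and 100% of those at 2 CPM above, and 5% and 1% of genes set at 1 CPM were called above and below. These counts had 1 mean per gene over the 3 libraries and 1 fixed spread for all genes. The rates were not measured for members that vary more between libraries, such as SOX6. Library pairs were tested with scipy 1.17.1 and plots drawn with matplotlib 3.10.9. Alternatives were DESeq2 1.42.0, other filters, levels and folds, halved counts, summed replicates and each replicate left out. Members, gene lists and tests were chosen with earlier results of these data known. Some genes are not reported here. Named were the other members, and of each other list the highest and lowest genes and direct partners. Genes lower or higher in replicate 3 were named beside them after their values were seen. No sequences are shown, since none were at hand.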

Additional observations from a re-analysis of the deposited data

How the results depend on the processing

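The count of 14 members above 1 CPM was the same under DESeq2 size factors, the DESeq2 Wald test, a minimum of 10 counts, halved counts, replicates 1 and 2 summed, a level of 0.5 CPM and without each replicate (14 to 14), and was 12 at a level of 2 CPM. The count of 8 below ran from 8 to 10 without a replicate and was 4 at a level of 0.5 CPM. Over all genes 13127 were above and 8849 below, with 12971 to 13318 and 7767 to 8320 without a replicate, and 3991 below when at least 10 counts were required, since low genes then leave the test. SOX6 was below 1 CPM with the DESeq2 Wald test (adjusted p = 0.04), halved counts (0.0453), the summed replicates (0.00474) and without each replicate (0.00234 to 0.0212). Fits on 2 libraries had infinite prior degrees of freedom and so ignore a gene's own spread. Directions turned for FOXN1 against 0.5 CPM (log2 level −0.45) and SOX30 against 2 CPM (0.83), which are set by the level chosen. With a 2-fold difference required, 3 members had less in replicate 3 than in replicate 1, and 3 less than in replicate 2, where 5 and 6 had been. With halved counts 0 members were higher in replicate 3 in either pair, where 1 had been, since low counts then lose precision. No paired analysis was possible because only 1 group was sequenced. Depth limits FOXB1, FOXC2, FOXD2 and FOXS1, which had 7 or fewer counts per library.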
